A study of Mus musculus with 30 samples.

Results

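The genes described here encode 8 germline RNA-binding proteins: *Nanos2* itself, *Nanos3*, *Dnd1*, *Pum2*, *Dazl*, *Lin28a*, *Ddx4* and *Elavl2*. They were listed by name, with no threshold on a measured value, although earlier results of these data were known. RNA levels were deposited for 7 of the 8, out of 13904 genes, and mRNA half-lives for 7 of the 8, out of 5806 transcripts. Both kinds of value were available for 6 genes, since *Dazl* had no RNA level and *Nanos2* had no half-life. All values came from cultured mouse spermatogonial stem cells (SSCs), the cells that maintain sperm production. The cultures were derived from testes at postnatal day 7 on a mixed C57BL/6 and DBA/2J background and were grown on fibroblast feeders. Each genotype was represented by 1 line. Line 4 was *Nanos2*TAG/+ and line 5 was *Nanos2*TAG/TAG, so 1 or both copies of *Nanos2* carried a V5, Myc, PreScission site, His and EGFP tag directly after the start codon. No line without NANOS2 and no line without the tag was measured by RNA-seq or SLAM-seq. RNA-seq was 1 library per line. SLAM-seq, which follows the loss of 4-thiouridine-labelled RNA during a chase, was 12 libraries per line over 6 chase times, from which the authors fitted 1 half-life per transcript and line. For RNA-seq, the sample labels give feeder depletion in both lines, with QIAzol for *Nanos2*TAG/+ and Trizol for *Nanos2*TAG/TAG, whereas the published methods describe sorted SSCs and QIAzol alone. Line and genotype cannot be told apart, nor can the reagent if the labels hold, and with 1 value per line no difference between the lines could be tested.

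NANOS2 is a zinc finger protein that keeps SSCs undifferentiated and acts on bound mRNAs by bringing in the CCR4-NOT deadenylase, which shortens poly(A) tails. It works with partners: DND1 binds RNA and loads NANOS2 onto targets, and Pumilio proteins such as PUM2 pair with Nanos proteins in many animals and bind UGUA-containing elements in 3′ UTRs. The other proteins of the set are known for their own steps in germ cell RNA control. DAZL binds 3′ UTRs and promotes translation, LIN28A blocks maturation of let-7 microRNAs and marks undifferentiated spermatogonia, DDX4 (the mouse VASA) is a helicase of germ granules and the piRNA pathway, and ELAVL2 binds AU-rich and U-rich RNA.

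Sequences are shown for the place where the tag enters NANOS2 and for each 3′ UTR stretch of the set that matches the NANOS2 consensus, since the first is what distinguishes the tagged allele and the others are the letters that the protein is known to prefer. Coordinates are 1-based and in GRCm38, and gene models are from GENCODE M21. *Nanos2* (chr7:18987400-18988962, plus strand) is a gene of 1 exon with a coding sequence of 411 bases and a 3′ UTR of 947 bases. The first 30 coding bases, in exon 1 at chr7:18987605-18987634, plus strand, are given with the start codon in capitals, and the tag follows these capitals.
Nanos2 coding start: ATGgacctaccgccctttgacatgtggaga

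The NANOS2 consensus was searched as the heptamer AUGAAAU and its related forms, which read AUGAAUU, the form AUUAAAU, and the form AUUAAUU, on the sense strand of 1 annotated 3′ UTR per gene. There were 3 matches in the set, 2 in *Pum2* and 1 in *Dazl*. *Pum2* (chr12:8674134-8752581, plus strand, 21 exons) holds its matches in exon 21, and *Dazl* (chr17:50279395-50293636, minus strand, 11 exons) in exon 11. The *Pum2* matches start 2736 and 2803 bases after the stop codon and end 119 and 52 bases before the annotated end of the transcript. The *Dazl* match starts 1779 bases after the stop codon and ends 67 bases before the transcript end. All 3 matches therefore lie in the last part of long 3′ UTRs. Capitals mark the matches, and the windows are chr12:8752445-8752474, chr12:8752512-8752541 and chr17:50279452-50279481, written 5′ to 3′ on the strand of the gene.
Pum2 first match: tattggctcaaATGAAATgttatcttcact
Pum2 second match: aataacattgtATGAAATaaacctggtctt
Dazl match: caaaatggaagATTAATTttaaacttaaaa

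Of the 3 matches, the second one in *Pum2* shared 3 bases with an AAUAAA hexamer, the usual polyadenylation signal. A match is only a run of letters and is frequent in long 3′ UTRs. Among annotated 3′ UTRs within 20% of the same length, 68.0% held at least 1 match for the length of *Pum2* (2861 bases, 1377 3′ UTRs) and 49.4% for the length of *Dazl* (1852 bases, 1634 3′ UTRs). *Nanos2*, *Nanos3*, *Dnd1*, *Lin28a*, *Ddx4* and *Elavl2* held no match. The corresponding share was 67.4% for the 2775 bases of *Lin28a* and 9.71% for the 172 bases of *Nanos3*, the longest and the shortest of these 6.

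The Pumilio element, searched as UGUANAUA, matched in 3 genes of the set. *Elavl2* (chr4:91250763-91400785, minus strand, 8 exons) held 3 matches in exon 8, *Pum2* held 2, both reading UGUAUAUA, and *Lin28a* (chr4:134003330-134018841, minus strand, 4 exons) held 1 in exon 4. The share of 3′ UTRs of like length with a match was 40.0%, 43.7% and 42.2%, respectively. The windows around the first *Elavl2* match (chr4:91251942-91251971) and the *Lin28a* match (chr4:134004352-134004381) are shown because they hold the same 8 letters, UGUAAAUA, on otherwise different sequence.
Elavl2 Pumilio match: gctttgtgtgaTGTAAATAagaccttgtgt
Lin28a Pumilio match: tggcctagttgTGTAAATAtaaatgtgttg

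The *Pum2* mRNA thus held matches to the element that its own protein family is known to bind, 445 and 698 bases after the stop codon, far from its matches to the NANOS2 consensus. The AU-rich element UUAUUUA, of the type that ELAVL proteins bind, matched 2 times in *Elavl2* itself, and also 1 time each in *Pum2* and *Dnd1*. The share of like 3′ UTRs with this element was 41.2%, 46.4% and 7.61%, respectively. *Nanos2*, *Nanos3* and *Ddx4* held no match to any of the motifs.

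**Figure D1:**
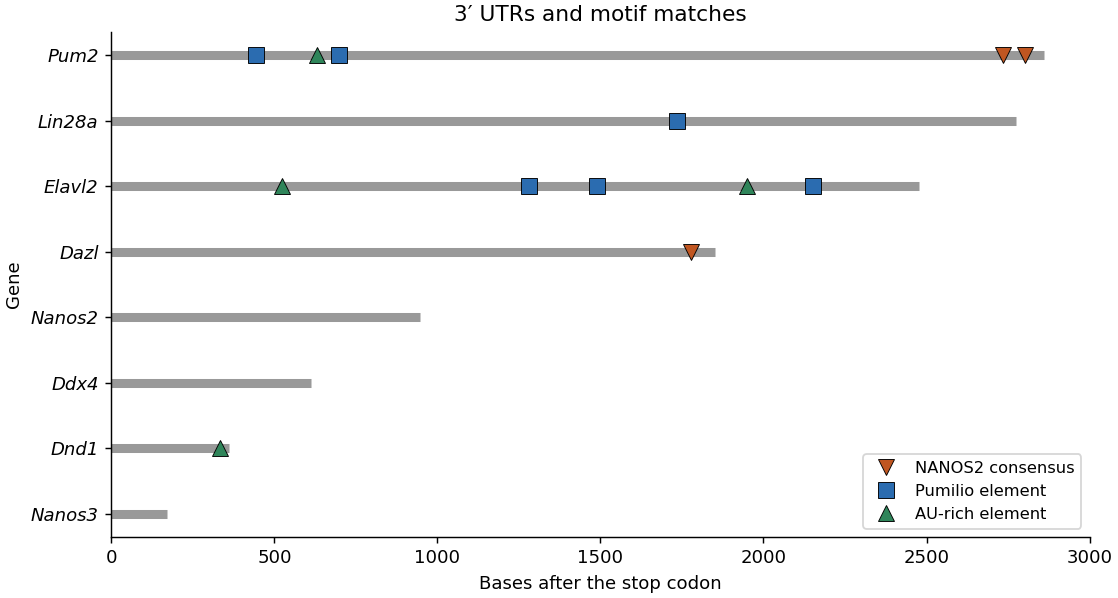
Grey bars are the annotated 3′ UTRs of the 8 genes, drawn to scale in bases after the stop codon, and symbols are the starts of matches to the NANOS2 consensus, the Pumilio element and the AU-rich element. The NANOS2 consensus matches sit near the right end of *Pum2* (2736 and 2803 bases) and *Dazl* (1779 bases), and *Nanos2*, *Nanos3* and *Ddx4* carry no symbol.

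RNA levels were given as FPKM, reads scaled to library depth and to a transcript length for each gene. The length behind these values was the mean over all annotated transcripts of a gene. It can differ from that of the transcript expressed, so comparisons of level between genes depend on it. For *Lin28a*, *Pum2* and *Elavl2* this mean is shorter than the 3′ UTR alone of the transcript described above. Ratios of a gene between the libraries do not depend on it. All 7 measured genes of the set were above the median of all genes, which was 10.2 FPKM in *Nanos2*TAG/+ cells and 10.5 in *Nanos2*TAG/TAG cells. Whole reads could be recovered from the FPKM and are given with each gene, and intervals are exact 95% Poisson intervals on these reads. They cover counting error only, not the spread between cultures or error in assigning reads to genes. Since the labels name kallisto, the whole reads may be rounded estimates rather than observed reads.

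*Nanos2* was measured at 27.5 FPKM in *Nanos2*TAG/+ cells (469 reads, interval 25.1 to 30.1) and at 23.8 FPKM in *Nanos2*TAG/TAG cells (436 reads, interval 21.6 to 26.1). By FPKM it was the second lowest of the 7 genes in both libraries. These values count endogenous *Nanos2* sequence only, as EGFP and the epitope tags are not part of the mouse annotation. They also include a limit of the locus: 47.4% of the 50-base stretches of *Nanos2* transcripts are shared with *Gm45058*, an antisense gene that overlaps it. Whether reads were counted by strand is not given in the sources used here.

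Its relative *Nanos3*, which protects primordial germ cells earlier in development and persists in undifferentiated spermatogonia, was the more abundant of the pair. *Nanos3* (chr8:84173731-84185217, minus strand, 2 exons) was at 90.8 FPKM in *Nanos2*TAG/+ cells (613 reads) and 65.4 FPKM in *Nanos2*TAG/TAG cells (475 reads), 3.30 and 2.75 times the level of *Nanos2*. The intervals were 83.8 to 98.3 and 59.7 to 71.6, respectively.

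*Dnd1*, encoding the NANOS2 partner, was the most abundant of the 7 in both libraries. It was at 189 FPKM in *Nanos2*TAG/+ cells (3654 reads, interval 183 to 195) and 151 FPKM in *Nanos2*TAG/TAG cells (3147 reads, interval 146 to 157), above 95.6% and 94.5% of all genes. *Pum2* was lower, with 40.8 FPKM (1268 reads, interval 38.6 to 43.1) in *Nanos2*TAG/+ and 33.6 FPKM (1125 reads, interval 31.7 to 35.7) in *Nanos2*TAG/TAG. Both genes were higher in *Nanos2*TAG/+ cells.

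By FPKM, *Lin28a* was second to *Dnd1*, with 117 FPKM (1550 reads, interval 111 to 123) in *Nanos2*TAG/+ cells and 96.5 FPKM (1377 reads, interval 91.5 to 102) in *Nanos2*TAG/TAG cells. *Ddx4* (chr13:112598333-112652475, minus strand, 21 exons) went the other way. It was at 31.0 FPKM (976 reads, interval 29.1 to 33.0) in *Nanos2*TAG/+ and 41.4 FPKM (1403 reads, interval 39.3 to 43.6) in *Nanos2*TAG/TAG. *Elavl2* was the lowest of the 7 in both libraries, at 16.1 FPKM (375 reads, interval 14.5 to 17.8) and 18.6 FPKM (465 reads, interval 16.9 to 20.3).

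The order of the 7 genes by FPKM was the same in both libraries apart from *Ddx4* and *Pum2*, which changed places. It ran from *Elavl2* through *Nanos2* at the low end to *Nanos3*, *Lin28a* and *Dnd1* at the high end. The places of *Lin28a*, *Pum2* and *Elavl2* in it rest on lengths shorter than the transcripts described above. The highest level was 11.7 times the lowest in *Nanos2*TAG/+ cells and 8.15 times the lowest in *Nanos2*TAG/TAG cells. Neighbours whose counting intervals overlapped were *Nanos2* and *Ddx4* in *Nanos2*TAG/+.

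**Figure D2:**
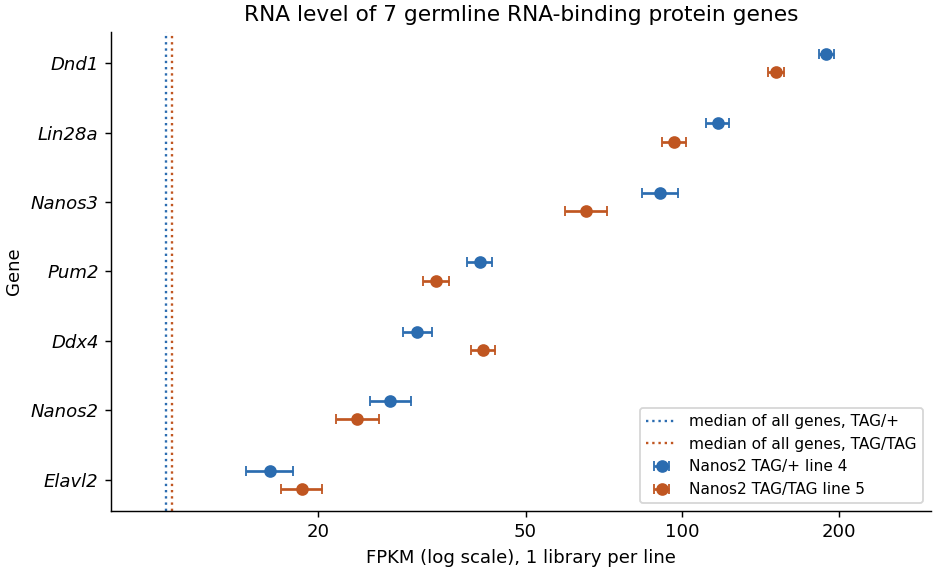
FPKM (log axis) of the 7 genes with an RNA level, 1 point per library, blue for the *Nanos2*TAG/+ line and orange for the *Nanos2*TAG/TAG line; bars are exact 95% Poisson intervals on the reads, and dotted lines are the medians of all genes. Blue lies to the right of orange for *Nanos2*, *Nanos3*, *Pum2*, *Lin28a* and *Dnd1* and to the left for *Ddx4* and *Elavl2*.

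None of the 7 genes differed over 2-fold between the libraries. A gene was counted as different past a 2-fold change of FPKM + 0.1 among genes with a mean FPKM of at least 1. By this rule 11.7% of 12546 genes were higher in *Nanos2*TAG/TAG and 8.67% were lower, and 0 of the 7 genes of the set passed in either direction. All 7 had a mean FPKM above 5, and among all genes with a mean FPKM of at least 5 the share in both directions together was 12.4%, in place of 20.3%, so that few calls or none among 7 genes is near the background. On the log2 scale the largest difference was that of *Nanos3*, which was lower in *Nanos2*TAG/TAG by a log2 ratio of -0.47 (0.720 times the level in *Nanos2*TAG/+, 95% counting interval 0.637 to 0.813). The ratio of *Ddx4* was 0.42 (1.34 times, interval 1.23 to 1.45). Absolute ratios of 52.6% of all genes were smaller than that of *Nanos3*, and of 47.6% smaller than that of *Ddx4*.

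The remaining log2 ratios were -0.32 for *Dnd1*, -0.28 for both *Pum2* and *Lin28a*, -0.21 for *Nanos2* and 0.20 for *Elavl2*. The last 2 came closest to no difference, with counting intervals of 0.757 to 0.986 times for *Nanos2* and 1.004 to 1.32 times for *Elavl2*. Both intervals leave out equal levels, but they cover counting error only. In all, 5 of the 7 genes were lower in *Nanos2*TAG/TAG, and the median log2 ratio was -0.28, compared with 6304 lower of 12546 genes and a median of -0.0025 over all genes. The median size of the ratio, without its sign, was 0.28 over the 7 genes and 0.44 over all genes.

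**Figure D3:**
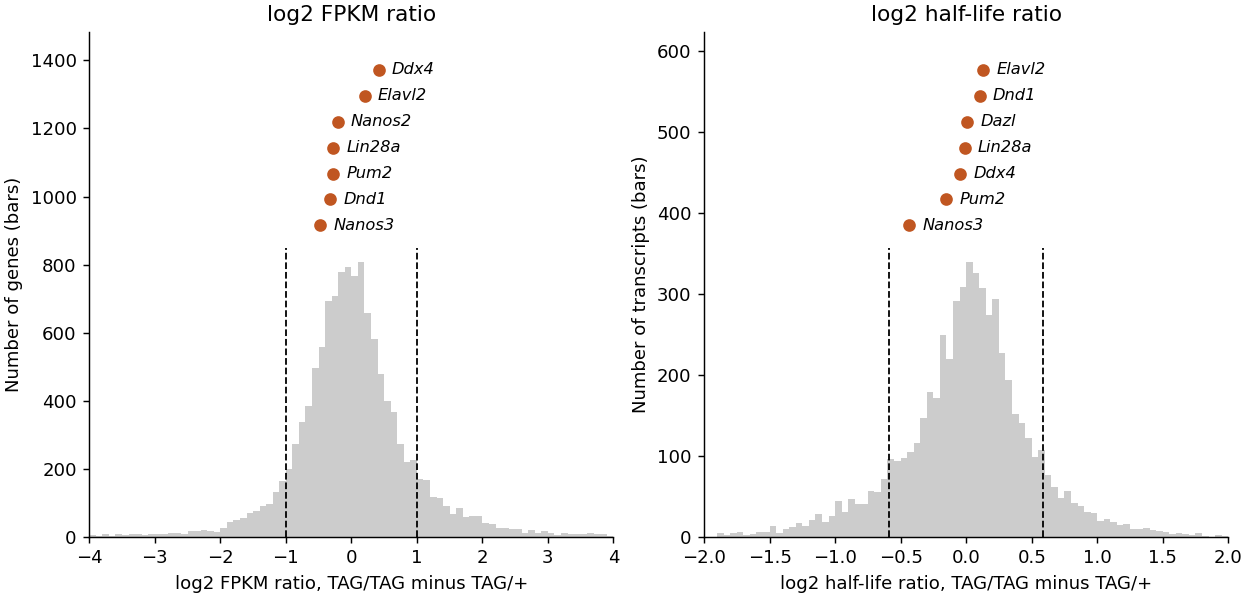
Left, log2 ratio of FPKM + 0.1 between the libraries (*Nanos2*TAG/TAG minus *Nanos2*TAG/+) for 12546 genes (grey bars) and the 7 named genes (orange points, stacked for legibility); right, log2 ratio of half-lives for 5806 transcripts and the 7 named genes. Dashed lines mark the 2-fold and 1.5-fold limits, no orange point lies outside them, and ratios beyond the axes (257 genes, 32 transcripts) are not drawn.

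Marker sums for other cell types also differed between the libraries, although feeder depletion (labels) or a sort of SSCs (published methods) would remove feeder cells. Markers of undifferentiated spermatogonia (19 of 21 listed with FPKM, *Sall4* and *Ret* highest) summed to 711 FPKM in *Nanos2*TAG/+ and 1228 in *Nanos2*TAG/TAG. Of the 18 with a mean FPKM of at least 1, 9 were over 2-fold higher in *Nanos2*TAG/TAG and 0 over 2-fold lower. Among all genes at this level the shares were 11.7% and 8.67%. *Ret*, which encodes a part of the GDNF receptor, was at 73.2 and 181 FPKM, and *Sall4*, a transcription factor, at 214 and 192. Differentiation and early meiosis markers (9 of 12, *Rec8* and *Sohlh2* highest) summed to 544 and 339, with 0 over 2-fold higher and 2 over 2-fold lower. Fibroblast markers (14 of 17, *Fn1* and *Col1a1* highest) summed to 349 and 442, Sertoli cell markers (4 of 8, *Wt1* and *Sox9* highest) to 5.89 and 27.1. *Fn1* alone was at 254 and 280 FPKM. Of the 13 fibroblast markers with a mean FPKM of at least 1, 12 were higher in *Nanos2*TAG/TAG, 4 of them over 2-fold, and 1 was lower. The 3 Sertoli cell markers at this level were all over 2-fold higher. The only Leydig marker of 5 with FPKM was *Star* (4.62 and 1.20) and the only macrophage marker of 6 was *Cd68* (2.80 and 10.2), with *Ptprc*, *Adgre1* and *Csf1r* not listed. Their part in the values of the 7 genes was not tested, and in bulk RNA fewer cells of a type and less RNA per cell cannot be told apart.

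Relatives or partners of *Nanos2*, *Lin28a*, *Elavl2*, *Dazl* and *Ddx4* outside the set were measured in the same libraries. *Nanos1* was at 13.4 FPKM in *Nanos2*TAG/+ and 11.6 in *Nanos2*TAG/TAG, below both *Nanos2* and *Nanos3*. *Lin28b* was at only 4.83 and 5.65 FPKM (170 and 214 reads), so that *Lin28a* was 24.2 and 17.1 times as high in FPKM. These ratios rest on the mean annotated transcript lengths of both genes.

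The ubiquitous *Elavl1* (HuR) was at 45.2 FPKM in both libraries, 2.81 and 2.43 times *Elavl2*, while *Elavl3* was at 0.684 and 0.847 FPKM (21 and 28 reads) and *Elavl4* had no value. *Boll*, the DAZ-family relative of *Dazl*, was at 44.3 and 41.8 FPKM. The DAZL-interacting *Dazap1* was at 56.2 and 91.7. Among DEAD-box relatives of *Ddx4*, *Ddx3x* was at 64.5 and 36.6 FPKM and *Ddx3y* at 0.516 and 0.210 (16 and 7 reads). Of the 6 relatives and partners with a mean FPKM of at least 1, 0 passed the 2-fold limit in either direction. With 11.7% of all genes at this level higher and 8.67% lower, a count of 0 among 6 says little. *Ddx3x* had the most negative log2 ratio, -0.81.

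Half-lives of the set ran from below the lower quartile of all transcripts to well above the upper one. The shortest, in both lines, was that of *Pum2*, 148 min in *Nanos2*TAG/+ and 134 min in *Nanos2*TAG/TAG. This was longer than only 20.3% and 17.7% of all transcripts, whose median was 224 min in *Nanos2*TAG/+ and 226 min in *Nanos2*TAG/TAG.

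At the other end, *Ddx4*, *Dazl*, *Lin28a* and *Dnd1* had half-lives above the upper quartile in both lines. *Ddx4* had 498 min in *Nanos2*TAG/+ and 483 min in *Nanos2*TAG/TAG, longer than 95.0% and 92.2% of all transcripts. *Dazl* had 466 and 469 min, longer than 93.7% and 91.5%. *Lin28a* had 410 and 407 min, longer than 91.0% and 87.7%. *Dnd1* was nearer to the quartile, with 299 and 321 min, longer than 77.3% and 78.9%. This upper quartile of all transcripts was 289 min in *Nanos2*TAG/+ and 300 min in *Nanos2*TAG/TAG, and the values of *Ddx4*, *Dazl* and *Lin28a* in the 2 lines lay close together.

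The remaining genes lay within the quartile range. *Elavl2* had 243 min in *Nanos2*TAG/+ and 267 min in *Nanos2*TAG/TAG, and *Nanos3* had 287 and 212 min. *Nanos3* thus lay above the median in *Nanos2*TAG/+ (longer than 74.3% of transcripts) and below it in *Nanos2*TAG/TAG (longer than 44.5%). Below the median were 1 of the 7 genes in *Nanos2*TAG/+, *Pum2*, and 2 in *Nanos2*TAG/TAG, *Pum2* and *Nanos3*. The longest half-life of the set was 3.35 times the shortest in *Nanos2*TAG/+ and 3.61 times in *Nanos2*TAG/TAG. The order was the same in both lines except that *Nanos3* and *Elavl2* changed places. The half-lives come without an error or a read depth, so it is not known which neighbours in this order differ beyond their error.

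**Figure D4:**
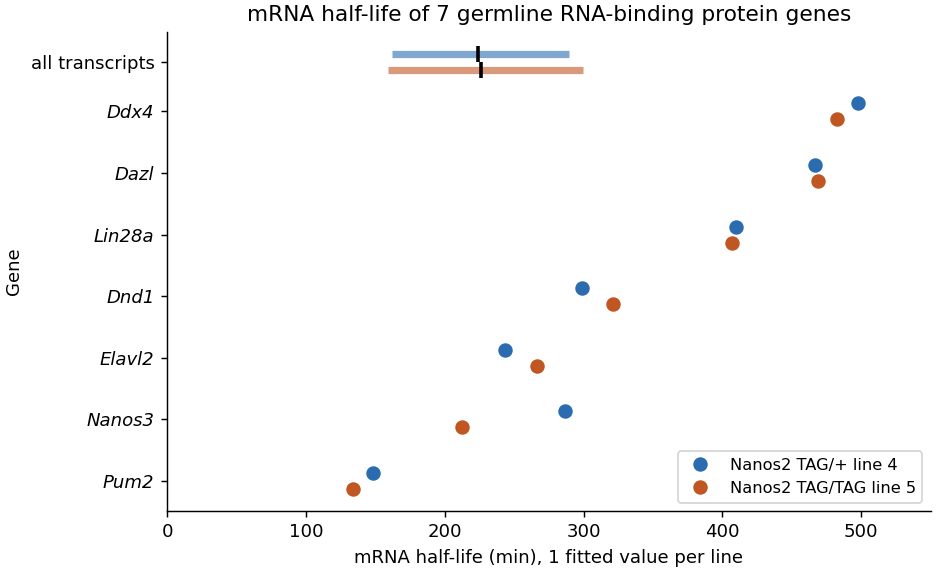
Half-life in minutes of the 7 genes with a value, 1 point per line, blue for *Nanos2*TAG/+ and orange for *Nanos2*TAG/TAG; the top row gives the quartiles (bar) and median (black tick) of all 5806 transcripts. *Pum2* lies left of the quartile range, *Dnd1*, *Lin28a*, *Dazl* and *Ddx4* lie right of it, and only *Nanos3* moves across the median between the lines.

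A half-life was counted as different past a 1.5-fold change between the lines. Of all 5806 transcripts, 10.0% were longer-lived in *Nanos2*TAG/TAG by this rule and 10.7% shorter-lived, and 0 of the 7 genes of the set passed in either direction. *Nanos3* came nearest, with a half-life in *Nanos2*TAG/TAG that was 74.4 min below that in *Nanos2*TAG/+ (0.741 times, log2 ratio -0.43), and 68.1% of transcripts had a smaller ratio in size. *Nanos3* was also the gene with the largest difference in FPKM, in the same direction. *Dazl* and *Lin28a* differed by 2.69 and -2.84 min, and only 1.77% and 2.33% of transcripts had smaller ratios. The others had log2 ratios between -0.15 (*Pum2*) and 0.13 (*Elavl2*). The median size of the log2 ratio, without sign, was 0.10 over the 7 genes and 0.27 over all transcripts.

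*Nanos2* had no half-life, and its level alone does not set it apart from genes that had one. Of 1325 genes with a mean FPKM within 1.25-fold of that of *Nanos2*, 755 (57.0%) had a half-life. Which filter left 5806 transcripts is not given in the sources used here.

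Relatives and partners could be set beside the members in half-life too. *Pum3*, a nucleolar relative of *Pum2*, had 273 min in *Nanos2*TAG/+ and 233 min in *Nanos2*TAG/TAG, longer than *Pum2* in both lines. *Nanos1* had 119 and 154 min, shorter than *Nanos3* in both lines. *Lin28b* had 254 and 283 min, shorter than *Lin28a* in both lines, and *Elavl1* had 339 and 366 min, longer than *Elavl2* in both. *Dazap1* had 326 and 356 min and *Dazap2* 217 and 220 min, both shorter than *Dazl*. *Ddx3x* had 333 and 371 min and *Ddx3y* 89.5 and 111 min, both shorter than *Ddx4*. None of the 8 relatives and partners with half-lives passed the 1.5-fold limit.

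Across the 5152 genes with both values, half-life and mean FPKM were related, with Spearman's rho of 0.49 in *Nanos2*TAG/+ and 0.47 in *Nanos2*TAG/TAG; this is a description across genes, which share libraries. The set did not follow one line. *Pum2* and *Ddx4* had nearly the same mean FPKM, 37.2 and 36.2, and mean half-lives of 141 and 490 min. Their likeness in level depends on the length used for *Pum2*, which is shorter than the 3′ UTR alone of its transcript described above. *Nanos3* and *Elavl2* had nearly the same mean half-life, 249 and 255 min, at mean levels of 78.1 and 17.4 FPKM. *Dnd1* had the highest level and a mean half-life of 310 min, below that of *Lin28a* at 408 min.

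**Figure D5:**
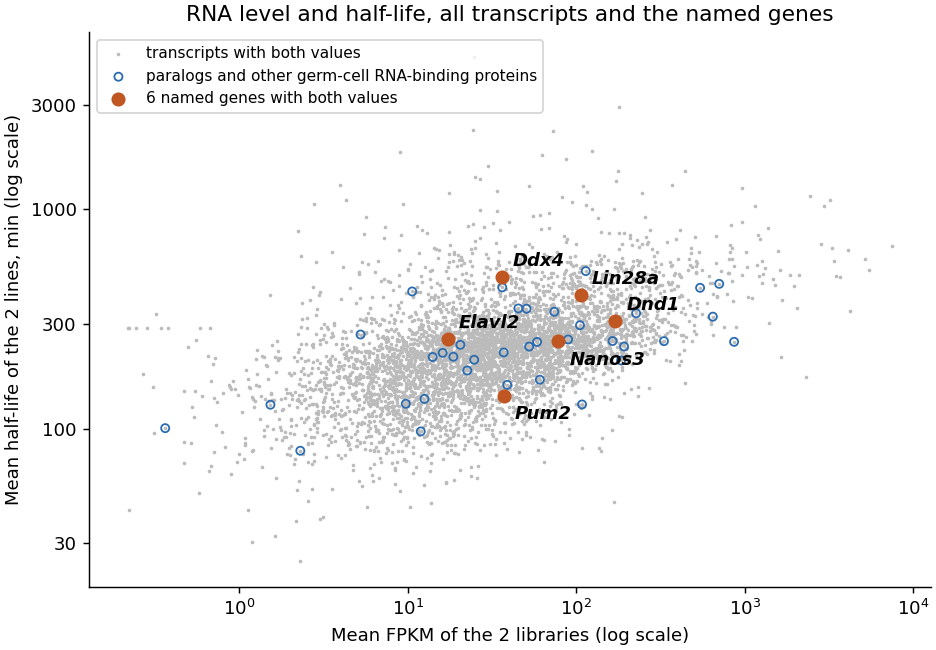
Mean half-life of the 2 lines against mean FPKM of the 2 libraries, both on log axes, for all transcripts with both values (grey), relatives, partners and other germ-cell RNA-binding proteins (blue circles) and the 6 named genes (orange). *Ddx4* and *Pum2* lie above one another at 36.2 and 37.2 FPKM, with 490 and 141 min.

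The genes most like each member over both FPKM values and both half-lives were found by Euclidean distance on the log2 scale among 5144 genes. For *Dnd1* they were *Srp72* (distance 0.075) and *Tnks2* (0.11), and for *Elavl2* they were *Cstf2t* (0.15) and *Eef1akmt4* (0.16). For *Pum2* they were *Ash1l* (0.15) and *Dnajc14* (0.26), and for *Lin28a* they were *Cct3* (0.17) and *Psmd1* (0.18). *Nanos3* had *Chmp1a* and *Ctr9* (both 0.24), and *Ddx4* had *Tsen34* (0.28) and *Smc1a* (0.30), the largest distances of the 6. These distances say that the values are alike and nothing on function.

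Transcript features were set beside the half-lives. *Pum2*, the shortest-lived, has the longest 3′ UTR of the set (2861 bases), but *Lin28a* with 2775 bases was among the long-lived. *Ddx4*, the longest-lived, has 612 bases, and *Nanos3* only 172 bases, against a median of 1219 bases over 5777 transcripts with a half-life. Over these transcripts, rho of half-life with 3′ UTR length was -0.27 in *Nanos2*TAG/+ and -0.26 in *Nanos2*TAG/TAG. Transcripts with a NANOS2 consensus match had median half-lives of 196 and 200 min, those without one 245 and 247 min, but their median 3′ UTR lengths were 2099 and 766 bases. *Pum2* and *Dazl*, which both have matches, lay on opposite sides of these medians, at 148 and 134 min and at 466 and 469 min.

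*Pum2*, *Dazl* and *Ddx4* also share a low GC content at the last position of their codons. It was 33.5%, 37.1% and 32.6%, respectively, where the median of transcripts with a half-life was 59.0%, and only 1.18%, 3.81% and 0.762% of these transcripts lay lower. Their half-lives were nevertheless at opposite ends of the set. *Lin28a* had the highest, 73.8%, followed by *Dnd1* with 68.3% and *Nanos2* with 64.2%. Over all transcripts, rho of half-life with this measure was 0.069 in *Nanos2*TAG/+ and 0.072 in *Nanos2*TAG/TAG.

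The set was last compared with a list of 49 other RNA-binding proteins known from germ cells, 44 of them with FPKM and 32 with half-lives. Of the 43 with a mean FPKM of at least 1, 2 were over 2-fold higher in *Nanos2*TAG/TAG and 0 lower, and the median log2 ratio was -0.08. Over all genes at this level the shares were 11.7% higher and 8.67% lower. The 4 largest ratios were those of *Cpeb3* (0.491 and 2.57 FPKM, 16 and 90 reads), a cytoplasmic polyadenylation factor, *Adad2* (13.2 and 31.6 FPKM), *Ybx2* (12.3 and 23.8 FPKM), which stores mRNA in germ cells, and *Zfp36l2* (27.5 and 50.2 FPKM), which binds AU-rich elements.

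The median half-life of the list was 247 min in *Nanos2*TAG/+ and 243 min in *Nanos2*TAG/TAG, compared with 299 and 321 min for the 7 genes of the set. In each line, 12 of the 32 lay below the median of all transcripts. By the mean of both lines, the shortest were those of *Cpeb4* (92.2 and 66.2 min), *Meioc* (82.0 and 112 min), needed for meiotic prophase, and *Cpeb3* (175 and 81.9 min). By the same mean, the longest were those of *Cirbp* (563 and 481 min), the poly(A)-binding *Pabpc1* (415 and 498 min) and *Trim71* (341 and 539 min). *Ddx4* and *Dazl* thus had half-lives near the upper end of the list. Beyond 1.5-fold, 1 of the 32 was longer-lived in *Nanos2*TAG/TAG and 2 shorter-lived, where the shares over all transcripts were 10.0% and 10.7%.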

How the data were processed

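RNA-seq libraries of SSCs (ribosomal RNA-depleted total RNA, single-end reads) were processed by the authors to FPKM per gene, and the labels name kallisto and DESeq2 without versions. For SLAM-seq, the authors called conversions in SlamDunk and fitted first-order decay by nls, and the deposited value is a half-life in minutes per transcript and line, with technical replicates collapsed and no error. CRAC libraries were not analysed here, and 1 item is not reported here. FPKM columns were assigned to genotypes by inference from their abbreviated names and the table's name, and half-life tables from their names, which differ from the control and experiment names in the labels. Every direction between the lines rests on this. Multiplied by the mean GENCODE M21 transcript length and a library depth of 10908790 (*Nanos2*TAG/+) or 11738620 (*Nanos2*TAG/TAG), FPKM gave whole reads, within 0.01, for 100% of 13867 genes, and the script was tested on simulated data. This depth scales the libraries to about the same median, so a shift shared by all genes would not be seen.

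Log2 ratios used a pseudocount of 0.1. No test was made, since each line has 1 value. Other scalings, filters and pseudocounts were tried. Named were all 8 genes, each listed relative or partner, the 2 nearest genes by distance, the list members with the 4 largest ratios and the 3 shortest and 3 longest half-lives, and the 2 highest markers per list. The genes, lists and limits were chosen with earlier results of these data known. 3′ UTRs and sites are from GENCODE M21, and sites were read from GRCm38. Python 3.11.15, numpy 2.4.6, pandas and scipy were used.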

Additional observations from a re-analysis of the deposited data

How the results depend on the processing

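No paired analysis was possible because the result comes from no test and each line gave 1 value. Of 52 alternative values, 51 stayed within the counting interval, the spread over transcripts or over the genes of the set, or 1.5 times of the count. Many of these settings could hardly move a value, so the count says little about robustness. The medians of all genes that were subtracted were -0.0025 for FPKM and 0.0371 for half-life, on the log2 scale. The second was judged against a spread over transcripts of 0.5311. The share of all genes past 2-fold was 20.3% and became 12.4% with a mean FPKM of at least 5. No gene of the set passed 2-fold with a pseudocount of 1, after subtraction of the median of all genes, or in a count without a pseudocount or with reads scaled to their own sum, the last 2 chosen for this count after seeing the data. The read scaling was likewise added for the ratios. The median log2 FPKM ratio of the set ranged from -0.28 to -0.26. After subtraction of the median half-life ratio of all transcripts (0.0371 on the log2 scale), the ratio of *Dazl* went from 0.0083 to -0.029. Depth limits *Ddx3y*, *Elavl3* and *Cpeb3*, which had fewer than 100 reads in each library. It also limits genes with fewer than 100 reads in 1 library. These were *Cd68* (29), *Wt1* (52), *Cpeb4* (92) and *Sox9* (99) in *Nanos2*TAG/+, and *Star* (33) in *Nanos2*TAG/TAG.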
